A study of Mus musculus with 24 samples.

Results

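The genes described here are the enzymes and regulators of de novo lipogenesis in mouse liver, 10 genes of the 14995 in the deposited table. They were taken by symbol, by a rule that uses no measured value but was drawn up with earlier results of these data known: 8 enzymes (Acly, Acss2, Acaca, Acacb, Fasn, Elovl6, Scd1 and Me1) and 2 transcription factors (Srebf1 and Mlxipl). Their messenger RNA was counted 20 weeks after surgery in 24 liver libraries from a study of obese mice. The 8 RYGB libraries came from mice after Roux-en-Y gastric bypass (RYGB), surgery that makes a small stomach pouch and joins it to a lower part of the intestine. Another 8 libraries, called WM, came from mice whose calories were restricted until their weight matched that of the RYGB mice, and 8 Sham libraries came from mice given a sham operation. Libraries keep the numbers of their labels (RYGB 10, WM 1, Sham 14). For strain, sex, age, diet, time of day and time since the last meal, the labels give nothing. The labels do not say outright that each library is a separate animal, and p-values measure the spread between these libraries.

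De novo lipogenesis is the making of fatty acids from carbohydrate and other carbon sources. Citrate exported from mitochondria is split to acetyl-CoA, acetyl-CoA carboxylase turns this into malonyl-CoA, fatty acid synthase builds palmitate from it with NADPH, and elongases and desaturases then lengthen the chain and add double bonds. In liver the pathway runs high after meals and in obesity and low in fasting. The transcription factor SREBP-1c, made from Srebf1, carries the insulin signal to these genes, and ChREBP, made from Mlxipl, carries the carbohydrate signal.

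Levels are CPM, the count of a gene relative to the size of its library, with library sizes scaled by the trimmed mean of M values (TMM). Counts came from the 3′ ends of transcripts, about 1 fragment per transcript, and were not divided by length. A gene is called, and is said to have risen or fallen, when its adjusted p in edgeR's quasi-likelihood test was under 0.05 with Benjamini-Hochberg adjustment over all 13121 genes tested. Fold changes are log2 ± standard error. All 10 genes passed the filter on low counts, and their raw counts ran from 22 to 186423 per library. Library totals were 14002193 to 19958019 counts in RYGB, 14208021 to 22766612 in WM and 13659647 to 17391377 in Sham.

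In RYGB livers against Sham livers, Acaca, Fasn, Scd1, Elovl6 and Me1 fell and Acss2 rose. Among all genes tested, 23.7% were called in this comparison, 11.0% lower and 12.7% higher. In WM livers against Sham livers, Acaca, Acacb, Fasn, Scd1, Elovl6 and Me1 fell and 0 of the 10 genes rose, where 31.4% of all genes were called (15.0% lower, 16.5% higher). For that count of 0 by edgeR, DESeq2 also gave 0, and 1 gene, Acss2, was higher at an unadjusted threshold of 0.05. Between RYGB and WM livers, 1 of the 10 genes was called, Acss2, which was higher after bypass, against 1.49% of all genes called (1.06% higher, 0.434% lower). The median log2 fold change of the 10 genes was -0.82 in RYGB vs Sham, -1.39 in WM vs Sham and 0.39 in RYGB vs WM, against -0.01 in both comparisons with Sham and -0.02 in RYGB vs WM over all genes tested. The comparisons of RYGB and of WM with Sham share the Sham libraries.

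**Figure D1:**
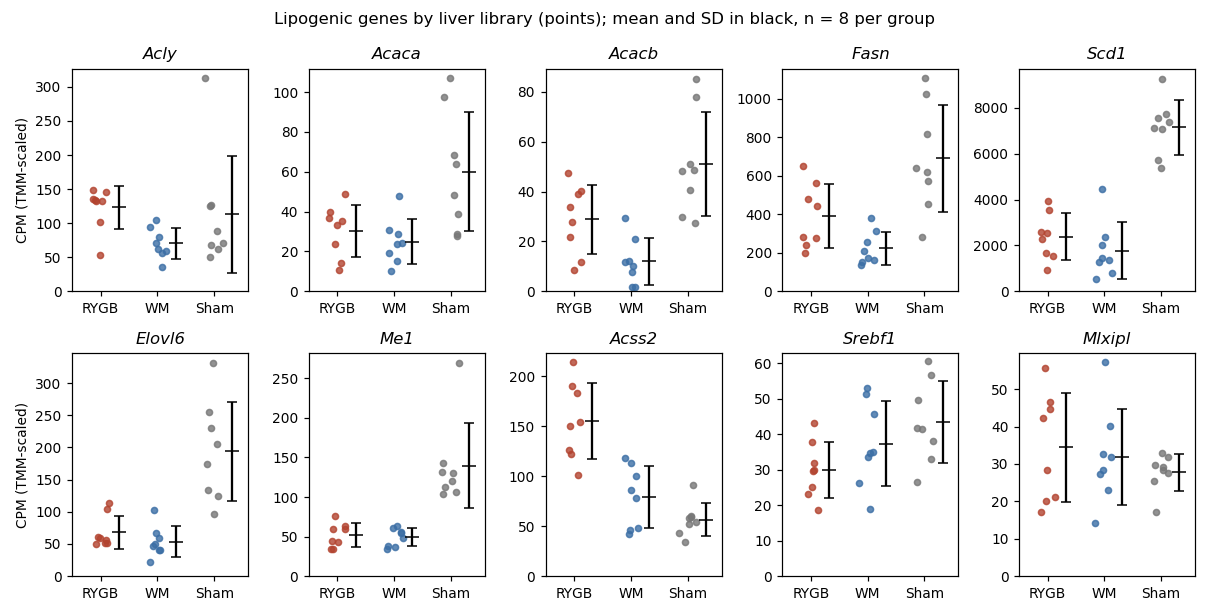
TMM-scaled CPM of each of the 10 lipogenic genes on the vertical axis (each from 0) in RYGB, WM and Sham livers, 1 point per library, with the mean and SD of 8 libraries in black. Scd1 and Me1 in every RYGB and WM library lay below every Sham library, whereas Acss2 in every RYGB library lay above every Sham library.

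Some facts of the libraries bear on these values. The 9 hepatocyte markers in the table were detected in every library, and their summed level was 79816 to 134902 CPM in RYGB, 73501 to 128517 CPM in WM and 32885 to 72076 CPM in Sham, most of it from Alb. Of these 9, 6 rose and 1 fell in RYGB vs Sham and 7 rose and 1 fell in WM vs Sham. The one that fell in each was Apob (-1.23 in RYGB, edgeR adjusted p = 0.000222, and -1.28 in WM, edgeR adjusted p = 9.39e-05), and Hnf4a was not called. In bulk liver, a change in the number of hepatocytes cannot be told apart from a change in RNA per cell. TMM factors were 0.819 to 1.05 in RYGB, 0.791 to 1.09 in WM and 0.988 to 1.38 in Sham. With plain library totals in their place, the median of all genes moved to -0.36 in RYGB vs Sham and to -0.33 in WM vs Sham, and the share of called genes that were higher was 17.6% in RYGB and 22.4% in WM, against 53.6% in RYGB and 52.4% in WM with TMM. In each library, the deviation of log2 CPM from the gene's mean over the 24 libraries was also fitted on log2 transcript length. The slopes were -0.0598 ± 0.0548 in RYGB, -0.0998 ± 0.0785 in WM and 0.16 ± 0.0485 in Sham (mean ± SD, n = 8 each). Such slopes compare libraries with each other and do not give the trend of CPM with length inside a library. The lipogenic transcripts are long, with a median of 4629 nt for the longest isoform against 3229 nt over all genes tested. Pancreatic acinar transcripts (15 genes) summed to 2982 CPM in RYGB 18, 3126 CPM in RYGB 19 and 1396 CPM in Sham 17, and to at most 188 CPM elsewhere, where most came from Cela1. Macrophage markers (10 genes) summed to 132 to 773 CPM in RYGB, 182 to 493 CPM in WM and 59.8 to 301 CPM in Sham. Of the 9 tested, 6 rose and 1 fell in RYGB vs Sham and 5 rose and 2 fell in WM vs Sham. Clec4f, Timd4, Vsig4, Marco and Cd5l rose in both, while Gpnmb fell in both (-4.25 in RYGB, edgeR adjusted p = 0.000175, and -3.97 in WM, edgeR adjusted p = 0.000197) and Cd9 fell in WM. Stellate cell and matrix markers (8 genes) summed to 243 to 338 CPM in RYGB, 187 to 348 CPM in WM and 372 to 756 CPM in Sham, most of it from Dcn. Of the 7 tested, 5 were called in RYGB vs Sham and 6 in WM vs Sham, all lower. Dcn changed by -0.41 in RYGB (not called) and -0.59 in WM, and Col1a1 by -3.64 in RYGB and -3.88 in WM (edgeR adjusted p = 2.49e-07 in RYGB and 5.64e-08 in WM). Adipose tissue also makes lipogenic enzymes. The 11 adipocyte markers in the table summed to 1407 to 4952 CPM in RYGB, 906 to 4275 CPM in WM and 3341 to 5197 CPM in Sham, most of it from Car3, which hepatocytes express too. Of these, Adipoq and Plin1 were near 0, Adipoq at no more than 3.97 CPM in RYGB, 8.84 CPM in WM and 2.12 CPM in Sham, and Plin1 at no more than 1.18 CPM in RYGB, 1.60 CPM in WM and 0.548 CPM in Sham. Others of the 9 adipocyte markers tested were called: Cfd (1.82, edgeR adjusted p = 0.0295) and Fabp4 (1.28, edgeR adjusted p = 0.0278) rose and Cidec fell (-4.61, edgeR adjusted p = 2.03e-07) in RYGB vs Sham, and 4 fell in WM vs Sham, Cidec (-5.06) and Lpl (-0.98) among them. In Sham, Cidec averaged 59.8 ± 28.1 CPM and Adipoq 0.555 ± 0.763 CPM. Which cells made the Cidec and Lpl RNA was not tested. The part of these measures in the results below was not tested, except where a value without the libraries or with a correction is given.

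Cytosolic acetyl-CoA for the pathway comes from a pair of enzymes, Acss2 and Acly. Acss2, the cytosolic acetyl-CoA synthetase that makes acetyl-CoA from acetate, was the only one of the 10 genes called higher in RYGB vs Sham or in RYGB vs WM. Its level ran from 101 to 214 CPM in RYGB livers (median 152), from 42.0 to 118 CPM in WM livers (median 82.0) and from 34.1 to 90.6 CPM in Sham livers (median 56.2). Every RYGB library stood above every Sham library, while WM libraries overlapped both groups. Over all genes, RYGB and Sham did not overlap for 5.39%, WM and Sham for 5.82%, and RYGB and WM for 0.358% (0.0762% with RYGB lower). Acss2 averaged 155 ± 38.4 CPM in RYGB and 56.4 ± 16.4 CPM in Sham (SD, n = 8 each), a 2.75-fold rise (log2 fold change 1.46 ± 0.23, edgeR adjusted p = 2.75e-05). Against WM it was 1.96-fold higher in RYGB livers (0.97 ± 0.22, edgeR adjusted p = 0.0175), with 8 of 8 RYGB libraries above the WM median. That call was lost without Sham 17, RYGB 18 and RYGB 19 together (0.87, adjusted p = 0.0835) and without RYGB 10 alone (0.89, adjusted p = 0.0521). In the same comparison of RYGB with WM, 3 of the 9 adipocyte markers tested were also higher and 0 lower. Those were Cfd (2.67 ± 0.64, edgeR adjusted p = 0.023), Fabp4 (1.63 ± 0.43, edgeR adjusted p = 0.048) and Lpl (1.18 ± 0.29, edgeR adjusted p = 0.0293). Adipoq (-0.72 ± 1.04, edgeR adjusted p = 0.897) and Lipe (-0.10 ± 0.37, edgeR adjusted p = 0.973) had negative changes and were not called. The other markers tested had positive changes and were not called either. The part of these markers in the Acss2 value was not tested. In WM against Sham, Acss2 did not pass (0.49 ± 0.22, adjusted p = 0.0941), but it did after the length and GC correction (0.59, adjusted p = 0.0444) and without Sham 14 (0.62, adjusted p = 0.0359) or WM 1 (0.58, adjusted p = 0.0457).

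Acly, the ATP citrate lyase that makes acetyl-CoA from citrate, was not called in any of the 3 comparisons. Levels were 53.3 to 149 CPM in RYGB livers (median 134), 35.5 to 104 CPM in WM livers (median 66.0) and 50.2 to 313 CPM in Sham livers (median 79.6). The groups overlapped, and Sham 14, at 313 CPM, stood far above the other Sham libraries. In RYGB vs Sham the change was 0.13 ± 0.29 (adjusted p = 0.796), and without Sham 14 it was 0.55 (adjusted p = 0.0962). Its sign turned with library totals (-0.25) and without Sham 17, RYGB 18 and RYGB 19 (-0.02). In WM vs Sham the change was -0.69 ± 0.29 (adjusted p = 0.0746) and moved to -0.27 without Sham 14 (adjusted p = 0.411). That value passed without Sham 6 (-0.80, adjusted p = 0.0405), without WM 9 (-0.79, adjusted p = 0.0463) and with library totals (-1.0, adjusted p = 0.0121). In RYGB vs WM it was 0.81 ± 0.29 (adjusted p = 0.229), with 7 of 8 RYGB libraries above the WM median.

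The start regions of Acss2, which rose after bypass, of Acly, which was not called, and of Fasn, which fell in both comparisons with Sham, are shown because Acss2 and Acly supply the acetyl-CoA that the synthase draws on, and the 3 genes had different calls. RefSeq (GRCm38.p6) gave 300 bases for each, 250 before and 50 from the start of the gene, at chr2:155517793-155518092 on the plus strand (Acss2), chr11:100527951-100528250 on the minus strand (Acly) and chr11:120824498-120824797 on the minus strand (Fasn). Capitals mark the letters CCAAT and GGGCGG (the GC box) on either strand, so that CCGCCC is a GC box on the other strand, and the CCAAT matches on opposite strands of Fasn overlap.
Acss2: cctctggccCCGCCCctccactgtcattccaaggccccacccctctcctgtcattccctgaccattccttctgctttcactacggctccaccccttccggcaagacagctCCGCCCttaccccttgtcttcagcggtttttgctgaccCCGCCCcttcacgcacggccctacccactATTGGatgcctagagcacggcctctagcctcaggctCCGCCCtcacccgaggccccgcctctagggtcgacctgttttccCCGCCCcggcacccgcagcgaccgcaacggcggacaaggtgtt
Acly: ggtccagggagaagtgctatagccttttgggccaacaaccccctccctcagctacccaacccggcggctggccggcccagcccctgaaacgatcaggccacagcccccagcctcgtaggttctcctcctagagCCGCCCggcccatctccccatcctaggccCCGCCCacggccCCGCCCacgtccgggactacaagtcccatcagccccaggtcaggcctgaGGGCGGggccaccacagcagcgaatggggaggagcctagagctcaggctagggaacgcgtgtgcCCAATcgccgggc
Fasn: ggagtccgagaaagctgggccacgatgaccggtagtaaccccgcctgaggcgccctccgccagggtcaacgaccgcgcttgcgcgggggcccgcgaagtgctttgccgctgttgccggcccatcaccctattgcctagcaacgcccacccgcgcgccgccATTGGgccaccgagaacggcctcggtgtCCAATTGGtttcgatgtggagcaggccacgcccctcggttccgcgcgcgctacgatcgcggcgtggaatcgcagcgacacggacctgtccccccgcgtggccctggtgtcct
Acss2 held 5 GC boxes and 1 CCAAT, Acly 4 GC boxes and 1 CCAAT, and Fasn 3 CCAAT and 0 GC boxes. Of 32851 regions of the same length, 35.7% held at least 1 GC box and 37.4% at least 1 CCAAT. TCACNCCAC, a sterol regulatory element form, was in 1.24% of regions and the E-box CACGTG in 7.15%, and neither was in these 3 windows. RefSeq had 13 such regions for 9 of the 10 genes, and only 1 region of Mlxipl held TCACNCCAC and another of Mlxipl held CACGTG. A match of letters is a description, and a window without one says nothing of more distant sequence.

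Acetyl-CoA carboxylase, which commits acetyl-CoA to fatty acid synthesis, has a cytosolic form, ACC1 from Acaca, and a form at the outer mitochondrial membrane, ACC2 from Acacb, whose malonyl-CoA restrains fatty acid oxidation. Acaca ran from 10.9 to 48.7 CPM in RYGB livers (median 34.3), from 9.96 to 47.6 CPM in WM livers (median 23.8) and from 28.0 to 107 CPM in Sham livers (median 56.2). The groups overlapped, although all 8 RYGB and all 8 WM libraries lay below the Sham median. Acaca fell 1.98-fold in RYGB (-0.98 ± 0.32, edgeR adjusted p = 0.0238) and 2.41-fold in WM (-1.27 ± 0.32, edgeR adjusted p = 0.00324). The call in RYGB was lost after the length and GC correction (-0.65, adjusted p = 0.143), without Sham 14 (-0.81, adjusted p = 0.0657) and without Sham 23 (-0.85, adjusted p = 0.059). Those were the highest Sham libraries for this gene.

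Acacb ran from 8.68 to 47.5 CPM in RYGB livers (median 30.6), from 1.78 to 29.5 CPM in WM livers (median 10.8) and from 27.5 to 85.2 CPM in Sham livers (median 48.4). WM libraries were lowest, with WM 1 and WM 27 below 2 CPM, and only WM 20 reached into the Sham range. Acacb fell 4.27-fold in WM (-2.10 ± 0.43, edgeR adjusted p = 0.00043). In RYGB it did not pass (-0.82 ± 0.41, adjusted p = 0.147), and it passed with library totals (-1.17, adjusted p = 0.025), limma-voom (-1.22, adjusted p = 0.0058) and a fit of the compared groups alone (-0.81, adjusted p = 0.0465). The direct comparison of RYGB with WM gave 1.27 ± 0.42 (adjusted p = 0.155), which passed without WM 20 (1.61, adjusted p = 0.0429) and after the length and GC correction (1.29, adjusted p = 0.048). The ratio of Acacb to Acaca counts within a library lay between 0.705 and 1.06 in Sham. It spread from 0.261 to 2.53 in RYGB (median 0.942) and from 0.0648 to 2.96 in WM (median 0.422), against a Sham median of 0.915. These ratios are given without a test, since the pairs were picked after the values were seen.

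Fasn encodes fatty acid synthase, the multifunctional enzyme that builds palmitate. Its level was 198 to 649.7 CPM in RYGB livers (median 364), 138 to 383 CPM in WM livers (median 190.0) and 284 to 1109 CPM in Sham livers (median 632). The ranges overlapped in both comparisons with Sham, where Sham 6 was the lowest library and Sham 23 and Sham 14 the highest. Fasn fell 1.76-fold in RYGB (-0.82 ± 0.28, edgeR adjusted p = 0.0298) and 3.10-fold in WM (-1.63 ± 0.28, edgeR adjusted p = 6.29e-05). The call in RYGB was lost after the length and GC correction (-0.49, adjusted p = 0.133) and without any 1 of Sham 14, Sham 16, Sham 23, RYGB 11, RYGB 15, RYGB 22 or RYGB 28 (-0.78 to -0.69, adjusted p = 0.0544 to 0.0754). In WM the call held under all 26 alternatives (-1.99 to -1.29). All 8 RYGB libraries stood above the WM median, yet the difference between RYGB and WM did not pass (0.82 ± 0.28, adjusted p = 0.175). Relative to Acly, Fasn counts had a median ratio of 3.46 in RYGB, 2.78 in WM and 8.05 in Sham.

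**Figure D2:**
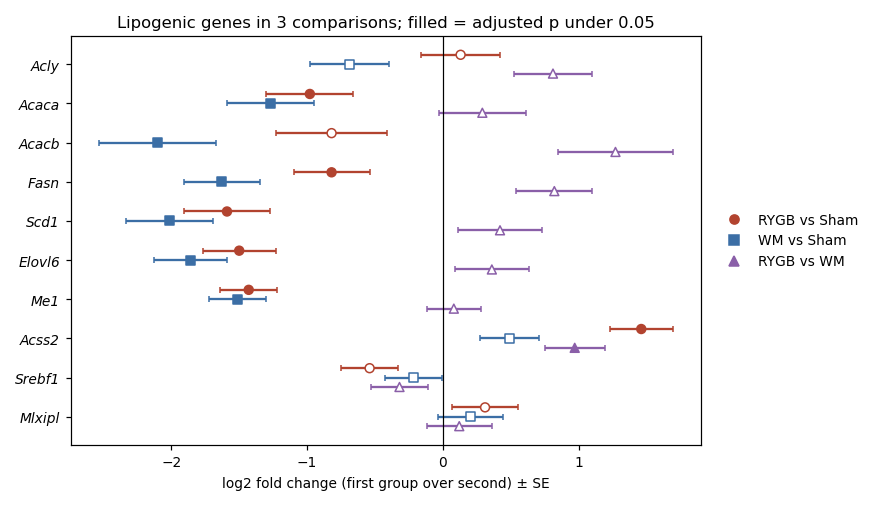
Log2 fold change ± SE of each lipogenic gene on the horizontal axis in RYGB vs Sham (circles), WM vs Sham (squares) and RYGB vs WM (triangles), with filled symbols for an edgeR adjusted p under 0.05. Acss2 lies to the right of 0 in all 3 comparisons, while Acaca, Acacb, Fasn, Scd1, Elovl6 and Me1 lie to the left in both comparisons with Sham.

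The enzymes that finish the fatty acid, Scd1 and Elovl6, fell in both comparisons with Sham. Scd1, the liver's main stearoyl-CoA desaturase, which makes oleate and palmitoleate, ran from 931 to 3960.0 CPM in RYGB livers (median 2401), from 521 to 4442 CPM in WM livers (median 1411) and from 5371 to 9279.9 CPM in Sham livers (median 7241). The lowest Sham library lay above every other library. Groups that do not overlap, with the treated group lower, were found for 2.1% of all genes in RYGB vs Sham and 2.68% in WM vs Sham. Scd1 fell 3.01-fold in RYGB (-1.59 ± 0.32, edgeR adjusted p = 0.000532) and 4.04-fold in WM (-2.01 ± 0.32, edgeR adjusted p = 2.63e-05). Its coefficient of variation was 42.8% in RYGB, 69.3% in WM and 16.9% in Sham. The difference between RYGB and WM did not pass (0.42 ± 0.31, adjusted p = 0.706).

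Elovl6, the elongase that extends palmitate to stearate, stood at 50.5 to 114 CPM in RYGB livers (median 57.1), 21.6 to 103 CPM in WM livers (median 48.0) and 97.0 to 330.5 CPM in Sham livers (median 189.5, lowest in Sham 6). RYGB 10, RYGB 19 and WM 9 were the libraries that reached above the lowest Sham library. Elovl6 fell 2.83-fold in RYGB (-1.50 ± 0.27, edgeR adjusted p = 0.000174) and 3.63-fold in WM (-1.86 ± 0.27, edgeR adjusted p = 8.36e-06). Between RYGB and WM the difference was 0.36 ± 0.27 (adjusted p = 0.707).

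Me1, the cytosolic malic enzyme that supplies NADPH, was at 34.5 to 76.5 CPM in RYGB livers (median 52.1), 34.4 to 63.4 CPM in WM livers (median 51.9) and 104 to 269.7 CPM in Sham livers (median 126). Every RYGB and WM library lay below every Sham library. Me1 fell 2.69-fold in RYGB (-1.43 ± 0.21, edgeR adjusted p = 1.3e-05) and 2.84-fold in WM (-1.51 ± 0.21, edgeR adjusted p = 3.48e-06). The difference between RYGB and WM, 0.08 ± 0.20 (adjusted p = 0.953), was the smallest of the 10 genes, and its sign turned with limma-voom (-0.01) and without RYGB 19 (-0.02). The falls of Scd1, Elovl6 and Me1 were called under all 26 alternatives in both comparisons with Sham.

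Neither transcription factor was called in any of the 3 comparisons. Counts at the 3′ end do not separate the SREBP-1a and SREBP-1c forms of Srebf1 or the alpha and beta forms of Mlxipl. Srebf1 ran from 18.6 to 43.0 CPM in RYGB livers (median 29.8), from 18.8 to 52.9 CPM in WM livers (median 34.9) and from 26.5 to 60.6 CPM in Sham livers (median 41.5). The groups overlapped, with 7 of 8 RYGB libraries under the Sham median. Srebf1 did not pass in RYGB vs Sham (-0.54 ± 0.21, adjusted p = 0.0585) but passed in 9 of 26 alternatives, among them DESeq2 (-0.55, adjusted p = 0.0411), library totals (-0.88, adjusted p = 0.00228) and the fits without Sham 14, Sham 23, RYGB 18 or RYGB 19 (-0.63 to -0.59). In WM vs Sham the change was -0.22 ± 0.21 (adjusted p = 0.443), and in RYGB vs WM -0.32 ± 0.21 (adjusted p = 0.647).

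Mlxipl ran from 17.3 to 55.6 CPM in RYGB livers (median 35.4), from 14.2 to 57.4 CPM in WM livers (median 30.0) and from 17.2 to 33.0 CPM in Sham livers (median 28.7). The groups overlapped throughout, and the spread was wider after either treatment, with a coefficient of variation of 42.1% in RYGB, 40.2% in WM and 17.6% in Sham. The change was 0.31 ± 0.24 in RYGB vs Sham (adjusted p = 0.375), 0.20 ± 0.24 in WM vs Sham (adjusted p = 0.575) and 0.12 ± 0.24 in RYGB vs WM (adjusted p = 0.938). Its sign turned with library totals against Sham (-0.03 in RYGB, -0.13 in WM), with limma-voom in WM vs Sham (-0.14), and in RYGB vs WM without RYGB 18 (-0.01) or without the 3 acinar libraries (-0.13).

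**Figure D3:**
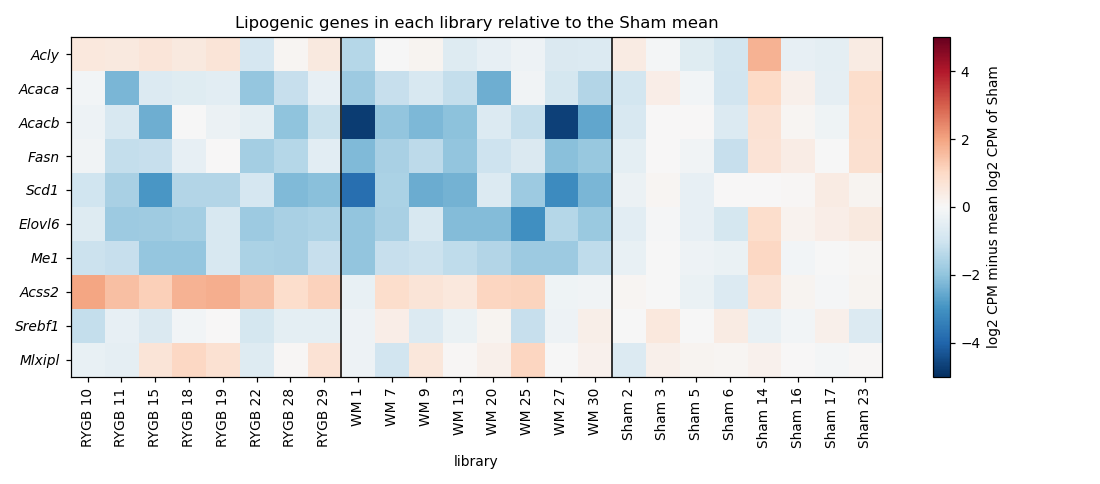
Log2 CPM of each lipogenic gene (rows) in each library (columns, RYGB left, then WM, then Sham), minus the gene's mean log2 CPM in Sham. The Acss2 row is above 0 in all RYGB libraries, the Acacb row is lowest in WM 1 and WM 27, and Sham 14 is above 0 for most enzymes.

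Some libraries were at an extreme of their group for several enzymes. WM 1 was the lowest WM library for 6 of the 8 enzymes. Sham 6 was the lowest Sham library for 5 enzymes and Sham 14 the highest for 5, although Sham 14 was below the Sham median for Scd1. Others stood at both ends: WM 25 was highest for 3 enzymes and lowest for Elovl6, and RYGB 22 was lowest for 3 and highest for Scd1. The 8 enzymes summed to 1615 to 4719.9 CPM in RYGB livers (median 3272), 835 to 5066 CPM in WM livers (median 1890.0) and 6394 to 10462 CPM in Sham livers (median 8761), and Scd1 made up most of each sum. Without Scd1 the other 7 summed to 544 to 1245 CPM in RYGB (median 799), 313 to 709 CPM in WM (median 497) and 629 to 2215 CPM in Sham (median 1193).

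Whether a liver with more Srebf1 or Mlxipl RNA also had more RNA of the enzymes was asked within each group of 8 libraries, over 48 relations (2 factors, 8 enzymes, 3 groups). None passed Benjamini-Hochberg adjustment in two-sided exact permutation tests of Pearson's r or of Spearman's rho (smallest adjusted p for r = 0.515), and 2 had an unadjusted p under 0.05 for r and 2 for rho. Chance gives a number near that for independent relations, but these 48 share factors, enzymes and libraries and are not independent. With 8 libraries per group, only a very strong relation could pass the adjustment. Both cases for r were inverse and in Sham: Srebf1 with Fasn (r = -0.74, exact p = 0.0353, rho = -0.67, exact p = 0.0831) and with Acacb (r = -0.71, exact p = 0.0478, rho = -0.69, exact p = 0.0694). The cases for rho were Srebf1 with Acss2 in Sham (rho = -0.81, exact p = 0.0218, r = -0.60, exact p = 0.111) and Mlxipl with Fasn in WM, which was positive (rho = 0.74, exact p = 0.0458, r = 0.60, exact p = 0.117). For the Srebf1 relations with Fasn and Acacb in Sham, without the 2 libraries farthest from the median of Srebf1, r was -0.86 with Fasn and -0.75 with Acacb. Both relations were picked by their own p, so these values only describe them. The median r of Srebf1 with the enzymes was 0.05 in RYGB, -0.11 in WM and -0.60 in Sham, and that of Mlxipl was 0.0 in RYGB, 0.22 in WM and 0.32 in Sham.

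After each group's mean was subtracted from log2 CPM, genes outside the set were ranked by how closely they followed the mean of the 10 genes over the 24 libraries, of 8229 candidates with at least 5 CPM. Among the closest were Repin1 (rho = 0.79), Ces2e (0.78), Sun2 (0.77), Sh3bp5l (0.76), Acat2 (0.75), Fads1 (0.74) and Ankrd13a (0.74). Acat2 is the cytosolic acetoacetyl-CoA thiolase and Fads1 a desaturase of polyunsaturated fatty acids. Of the 10 genes, which contribute to that mean, Fasn followed it most closely (rho = 0.91) and Srebf1 least (rho = -0.06). These values describe the libraries, which share depth and scaling, and carry no test.

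**Figure D4:**
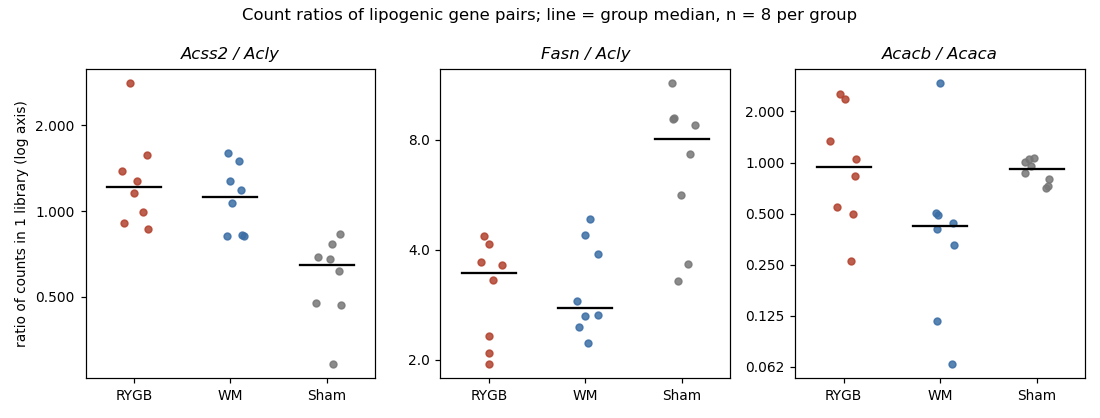
Ratio of counts of 2 lipogenic genes within 1 library (vertical log axis) for Acss2 to Acly, Fasn to Acly and Acacb to Acaca in RYGB, WM and Sham livers, 1 point per library, with a line at the median of 8 libraries. The ratio of Acss2 to Acly lies between 0.863 and 2.83 in RYGB, above every Sham library (0.29 to 0.83), and Acacb to Acaca spreads far more in RYGB and WM than in Sham. The pairs were picked after the values were seen.

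A ratio of counts within 1 library does not depend on how libraries are scaled. Acss2 to Acly had a median of 1.22 in RYGB (0.863 to 2.83), 1.12 in WM (0.818 to 1.61) and 0.647 in Sham (0.29 to 0.83), so that RYGB did not overlap Sham and WM overlapped it slightly. This pair was picked after the values were seen, and Acss2 by itself already did not overlap between RYGB and Sham. The ratio is therefore a description without a test.

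Other genes of the pathway were read from lists written with earlier results of these data known. Beside the counts of each list stand the shares of all genes called. These were 23.7% in RYGB vs Sham (12.7% higher, 11.0% lower), 31.4% in WM vs Sham (16.5% higher, 15.0% lower) and 1.49% in RYGB vs WM. A count near these shares is not read as a result about its list. Of 17 genes on a list for substrate and NADPH supply, 2 were called in RYGB vs Sham, both higher, and 1 rose and 2 fell in WM vs Sham. With library totals 5 fell in RYGB and 6 in WM. In RYGB the called genes were Mdh1, cytosolic malate dehydrogenase (0.70 ± 0.16, edgeR adjusted p = 0.00226), and Acat2 (0.86 ± 0.25, edgeR adjusted p = 0.0113), both lost with library totals and Acat2 also without the 3 acinar libraries. Acat2, as the acetoacetyl-CoA thiolase, draws on acetyl-CoA rather than supplying it. In WM, Pgd of the pentose phosphate pathway fell (-1.24 ± 0.30, edgeR adjusted p = 0.0023), as did Pdha1, a subunit of pyruvate dehydrogenase (-0.62 ± 0.15, edgeR adjusted p = 0.00204). The mitochondrial citrate carrier Slc25a1, which feeds Acly, averaged 116 ± 44.2 CPM in RYGB, 117 ± 46.2 CPM in WM and 113 ± 50.4 CPM in Sham and was not called.

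Of 22 genes that control SREBP-1c, 2 rose and 2 fell in RYGB vs Sham, 5 rose and 4 fell in WM vs Sham, and 1 was called in RYGB vs WM, where it was higher. With library totals 1 rose and 9 fell in RYGB, and 3 rose and 7 fell in WM. Nr1h3, the oxysterol receptor LXR alpha, which activates Srebf1, averaged 121 ± 19.8 CPM in RYGB, 158 ± 57.7 CPM in WM and 70.3 ± 13.9 CPM in Sham and rose in both (RYGB 0.78 ± 0.19, edgeR adjusted p = 0.00392, WM 1.17 ± 0.20, edgeR adjusted p = 4.6e-05). Insig2, which holds SREBP precursors in the endoplasmic reticulum, averaged 365 ± 117 CPM in RYGB, 157 ± 44.4 CPM in WM and 368 ± 69.0 CPM in Sham (SD, n = 8 each). It fell in WM against Sham (-1.23 ± 0.20, edgeR adjusted p = 2.62e-05) and was higher in RYGB than in WM (1.22 ± 0.20, edgeR adjusted p = 0.000568), with no overlap between RYGB and WM libraries, as for 0.358% of all genes.

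Of 18 partners and targets of ChREBP, 5 were called in RYGB vs Sham, all lower (11 with library totals), and 1 rose and 7 fell in WM vs Sham. Rgs16, a regulator of G protein signalling, fell in RYGB (-1.43 ± 0.33, edgeR adjusted p = 0.00187). Pnpla3, a lipid droplet protein that is also an SREBP-1c target, averaged 0.144 ± 0.206 CPM in RYGB and 1.66 ± 1.38 CPM in Sham (-3.47 ± 0.85, edgeR adjusted p = 0.00341). In WM the glycerol-3-phosphate dehydrogenase Gpd1 fell (-1.04 ± 0.25, edgeR adjusted p = 0.0018), as did G6pc, the glucose-6-phosphatase (-1.32 ± 0.27, edgeR adjusted p = 0.00054), while Gckr, which binds glucokinase, rose (0.85 ± 0.23, edgeR adjusted p = 0.00485). Between RYGB and WM, 1 gene of this list was higher and 1 lower. Arntl, the clock activator BMAL1, was higher in RYGB than in WM (2.89 ± 0.51, edgeR adjusted p = 0.00138). It averaged 8.96 ± 7.16 CPM in RYGB, 1.20 ± 0.826 CPM in WM and 4.90 ± 2.34 CPM in Sham. Against Sham, Arntl fell in WM (-2.03 ± 0.50, edgeR adjusted p = 0.00265) and was not called in RYGB (0.86 ± 0.46, edgeR adjusted p = 0.181). Bhlhe40 was lower in RYGB than in WM (-0.92 ± 0.22, edgeR adjusted p = 0.0235). That call was lost with the compared groups alone and without some single libraries. The part of the clock phase in the lipogenic values was not tested.

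Of 19 genes that act on acetyl-CoA carboxylase or fatty acid synthase or use their product, 4 rose and 1 fell in RYGB vs Sham, and 5 rose and 3 fell in WM vs Sham. With library totals 1 rose and 2 fell in RYGB, and 2 rose and 7 fell in WM. Mlycd, the malonyl-CoA decarboxylase that removes the product of ACC, averaged 119 ± 24.8 CPM in RYGB, 133 ± 48.0 CPM in WM and 66.1 ± 12.8 CPM in Sham and rose in both (0.85 ± 0.18, edgeR adjusted p = 0.00123 in RYGB, 1.0 ± 0.18, edgeR adjusted p = 0.000138 in WM). Mid1ip1, which promotes polymerization of ACC, also rose in both (0.71 in RYGB, edgeR adjusted p = 0.00177, and 0.94 in WM, edgeR adjusted p = 6.55e-05). Prkaa2, a catalytic subunit of the kinase AMPK that inactivates ACC, averaged 30.3 ± 5.96 CPM in RYGB, 34.9 ± 12.6 CPM in WM and 62.4 ± 16.7 CPM in Sham and fell in both (-1.04 in RYGB, edgeR adjusted p = 0.000619, and -0.84 in WM, edgeR adjusted p = 0.00316). Another AMPK subunit, Prkag1, rose in both (0.65 in RYGB, edgeR adjusted p = 0.0269, and 0.85 in WM, edgeR adjusted p = 0.00363). Prkab2 and Prkag2 fell in WM, and the other catalytic subunit, Prkaa1, was not called. After the length and GC correction Prkaa2 was not called in WM and Mid1ip1 was not called in RYGB, where library totals ended its call too.

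Among 9 tested paralogues of the enzymes and factors, 1 rose and 2 fell in RYGB vs Sham, 1 rose and 4 fell in WM vs Sham, and 2 were called in RYGB vs WM, both higher. With library totals 4 fell in RYGB. Acss3, a mitochondrial relative of Acss2, fell in both comparisons with Sham, at 1.96 ± 0.965 CPM in RYGB, 1.20 ± 0.924 CPM in WM and 7.87 ± 3.13 CPM in Sham (RYGB -2.0 ± 0.41, edgeR adjusted p = 0.000671, WM -2.68 ± 0.42, edgeR adjusted p = 2.2e-05). Elovl3, an elongase of very long saturated chains, rose in both against Sham and more in RYGB, by the direct test (RYGB vs WM 1.36 ± 0.24, edgeR adjusted p = 0.00107). Elovl5, an elongase of polyunsaturated fatty acids, fell in WM vs Sham (-1.89 ± 0.26, edgeR adjusted p = 2.66e-06), was not called in RYGB vs Sham (-0.61 ± 0.25, edgeR adjusted p = 0.072) and was higher in RYGB than in WM (1.28 ± 0.25, edgeR adjusted p = 0.0041).

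Of 13 tested genes induced by fasting, 2 rose and 2 fell in RYGB vs Sham and 4 were called in WM vs Sham, all lower. With library totals 0 rose and 5 fell in RYGB. The rises in RYGB were Tat (0.63 ± 0.19, edgeR adjusted p = 0.0127) and Sesn1 (0.70 ± 0.24, edgeR adjusted p = 0.0323). Between RYGB and WM 1 gene was called, Igfbp1, higher in RYGB (2.12 ± 0.36, edgeR adjusted p = 0.00103). Igfbp1 fell in WM vs Sham (-1.77 ± 0.36, edgeR adjusted p = 0.000398) and was not called in RYGB vs Sham (0.35 ± 0.35, edgeR adjusted p = 0.5). The falls included Fgf21, a hepatic hormone, at 1.26 ± 0.572 CPM in RYGB, 0.983 ± 0.687 CPM in WM and 5.41 ± 1.47 CPM in Sham, and Pdk4, a kinase that shuts off pyruvate dehydrogenase (RYGB -2.31 ± 0.51, edgeR adjusted p = 0.00148, WM -3.06 ± 0.53, edgeR adjusted p = 7.61e-05). The gluconeogenic gene Pck1 averaged 677 ± 304 CPM in RYGB, 596 ± 199 CPM in WM and 630.2 ± 229.6 CPM in Sham and was not called.

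The cholesterol branch, whose genes answer to SREBP-2, draws on the same acetyl-CoA. Of 18 SREBP-2 target genes, 14 were called in RYGB vs Sham, all higher (median log2 fold change 1.46), 11 rose and 1 fell in WM vs Sham (median 0.79, but 7 rose and 4 fell with library totals), and 4 were called in RYGB vs WM, all higher (median 0.62). Cyp51 rose in both comparisons with Sham (2.12 in RYGB, edgeR adjusted p = 3.7e-09, and 1.44 in WM, edgeR adjusted p = 7.49e-07). So did Sqle (2.59 in RYGB, edgeR adjusted p = 4.19e-08, and 1.75 in WM, edgeR adjusted p = 5.07e-06). The 1 gene that fell in WM against Sham was Hmgcs1, the cytosolic HMG-CoA synthase (-0.85 ± 0.27, edgeR adjusted p = 0.0158), a call lost after the length and GC correction. Hmgcs1 averaged 551 ± 211 CPM in RYGB, 149.9 ± 71.1 CPM in WM and 269.6 ± 63.0 CPM in Sham. It was higher in RYGB than in WM (1.88 ± 0.27, edgeR adjusted p = 0.000138).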

How the data were processed

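Liver mRNA was measured in 24 mouse libraries (8 each of RYGB, WM and Sham). Per the labels' protocols, RNA was taken up in Trizol, cleaned on RNeasy columns, made into QuantSeq 3′ libraries and read for 50 bp in the forward direction. The authors deposited raw counts of reads per Ensembl gene and a table of normalized signal, in which every count was divided by 1 size factor per library (largest relative deviation 5e-15). Tools named in the submitters' processing notes are R 4.1.2 and DESeq2 1.34. The sources used here do not name the program used for alignment or counting, the build or the strand setting, which are therefore not given. Symbols came from the deposited table, and its coordinates were not used.

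The raw counts were tested with edgeR 4.0.16 in R 4.3.3 (filterByExpr, TMM, a quasi-likelihood fit of all 24 libraries without covariates, 13121 genes tested). No library was a duplicate of another in its group (chi-square over genes, divided by degrees of freedom, 26.4 to 578). Alternatives were RLE scaling, library totals, DESeq2 1.42.0, limma-voom (limma 3.58.1), 2 other filters, the compared groups alone, a log2 fold change of at least 1, a per-library correction for transcript length and GC content (natural splines with 4 degrees of freedom, lengths from GENCODE M21 for 13098 genes), and libraries left out singly or as the 3 with acinar transcripts. The tests were first tested on simulated data with few genes changed. Of 2-fold changes, 30.2% were called in RYGB vs Sham, 40.9% in WM vs Sham and 43.3% in RYGB vs WM. For 1.5-fold changes it was 3.17%, 13.4% and 7.81% in that order, and for 4-fold changes 86.2%, 93.5% and 86.4%. False calls made up 2.53%, 5.05% and 4.21% of calls. A gene that was not called may thus have changed, and these shares may differ in the real data. Genes other than the 10 were named by rule: the 2 called genes with the smallest p per list, comparison and direction, of which some are given. Slc25a1, Pck1, Prkag1, Prkag2, Prkaa1 and the cell type marker genes were named after their values were seen. Of the genes ranked by likeness to the 10, 1 is not reported here. The genes and lists were chosen with earlier results of these data known.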

Additional observations from a re-analysis of the deposited data

Results flagged for a closer look

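Single libraries stood apart from the other 7 of their group, by a gap past Dixon's 95% critical value, in 4 of 30 combinations of gene and group, where chance gives about 1 in 20. Sham 14 was high for Acly (312.7 CPM), Me1 (269.7 CPM) and Acss2 (90.6 CPM). WM 20 was high for Scd1 (4442 CPM). Without Sham 14, Me1 still fell in RYGB (-1.22, edgeR adjusted p = 2.15e-05) and WM (-1.30, edgeR adjusted p = 5.38e-06), and Acss2 still rose in RYGB (1.59, edgeR adjusted p = 1.38e-05). Without WM 20, Scd1 still fell in WM (-2.36, edgeR adjusted p = 1.37e-06).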

How the results depend on the processing

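Of 780 values of the 10 genes under alternatives, 735 kept their direction and their side of the threshold, 16 lost a call, 20 gained one and 9 changed sign. The cause of these changes was not tested. In RYGB vs Sham the number of the 10 genes that fell, 5, was 3 after the length and GC correction and 3 with a minimum log2 fold change of 1, was 7 with library totals, with limma-voom and with the compared groups alone, was 6 with DESeq2 and without the 3 acinar libraries, and ran from 4 to 6 with single libraries left out. In WM vs Sham it was 6, 7 with library totals, and 6 to 7 with single libraries left out, and the number that rose, 0, was 1 after the length and GC correction and 0 to 1 with single libraries left out. In RYGB vs WM the number higher, 1, was 0 without Sham 17, RYGB 18 and RYGB 19, 2 after the length and GC correction, 0 with a minimum log2 fold change of 1, and 0 to 2 with single libraries left out. Sign changes concerned values that were not called: Acly in RYGB vs Sham (-0.25 with library totals, -0.02 without the 3 acinar libraries), Mlxipl against Sham (-0.03 in RYGB and -0.13 in WM with library totals, -0.14 in WM with limma-voom), Mlxipl in RYGB vs WM (-0.13 without the 3 acinar libraries, -0.01 to 0.29 with single libraries left out) and Me1 in RYGB vs WM (-0.01 with limma-voom, -0.02 to 0.15 with single libraries left out). Over all genes, RYGB vs WM had 139 higher and 57 lower calls, against 223 and 134 with DESeq2, 229 and 103 after the length and GC correction, 199 and 88 with limma-voom, 94 and 27 with the compared groups alone, and 92 and 39 with a minimum log2 fold change of 1. Counts for the pathway lists stayed within 1.5 times the stated ones in 951 of 1092 cases. With library totals 0 of the 48 relations passed as well. No paired analysis was made because the labels do not match libraries of 1 group with those of another.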
